A study of Caenorhabditis elegans with 6 samples.

Results

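Acetylation of lysine 18 of histone H3 (H3K18ac) was compared between worms fed cco-1 RNAi and worms fed the empty vector (ev) at every nuclear H3K18ac peak of the deposited tables. These are 17207 peaks of 34970 in all, the other 17763 being peaks of acetylated lysine 27 (H3K27ac). A peak was a member when it was not on mitochondrial DNA, and each was counted once. All 17207 had counts above 0 in both libraries, with a lowest count of 5, and no filter removed any of them.

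Acetyl groups on histone tails loosen contacts between histones and DNA and are read by bromodomain proteins that recruit the transcription machinery. H3K18ac and H3K27ac are both written by enzymes of the CBP/p300 family, whose worm member is CBP-1, and both mark active promoters and enhancers. The gene cco-1 encodes a subunit of respiratory complex IV, and its knockdown slows the respiratory chain and switches on the mitochondrial unfolded protein response, in which mitochondrial stress is relayed to chromatin and to genes for chaperones and proteases of the organelle.

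The knockdown worms were Caenorhabditis elegans of strain N2, wild type by label, given E. coli HT115 of which 50% carried cco-1 RNAi and the rest the empty vector. The controls were N2 worms given HT115 with the empty vector alone. An hsp-6::GFP reporter is named in the series design only, and both groups would then share it. Worms were kept at 20 °C on RNAi from the egg to the stage labelled L4/young adult and fixed whole in 1% formaldehyde for 30 min. Each group had 1 library for each mark, so the spread between replicates is unknown and no test was made. The 2 input libraries were not analysed here, and no value is corrected for input.

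Counts in nuclear peaks summed to 8948860 with cco-1 RNAi and 8293828 with ev for H3K18ac, and every count was divided by its library's sum and multiplied by 1000000 (counts per unit of 1000000, CPM). A peak or gene is called higher or lower when its CPM with cco-1 RNAi was at least 1.5-fold above or below that with ev. The 95% intervals of folds are exact (Clopper-Pearson) and cover counting error only. At the median count this error was 8.34% of a ratio. On chromosome X the H3K18ac table reached 7.89 Mb, and X beyond that point was not analysed here. Positions are those of the authors' tables, build ce11 (WBcel235).

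More peaks lost than gained H3K18ac by this size, but most moved little. Of the 17207 peaks, 1577 (9.16%) were higher and 2264 (13.2%) lower with cco-1 RNAi. The median log2 ratio was -0.03, with quartiles of -0.36 and 0.29. The interval lay wholly beyond 1.5-fold for 528 of the higher and 827 of the lower peaks, and 194 and 459 were past 2-fold. Of the 11891 genes to which the authors assigned a peak, taking the strongest peak of each, 956 (8.04%) were higher and 1560 (13.1%) lower. Of the 17763 H3K27ac peaks 1551 (8.73%) were higher and 4098 (23.1%) lower, with a median of -0.19, so the marks are read below with this offset in view. At the 10058 genes with an assigned peak of both marks, H3K18ac was past 1.5-fold in either direction at 20.2% (8.23% higher, 11.9% lower), and H3K27ac was higher at 8.44% and lower at 18.5%.

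**Figure D1:**
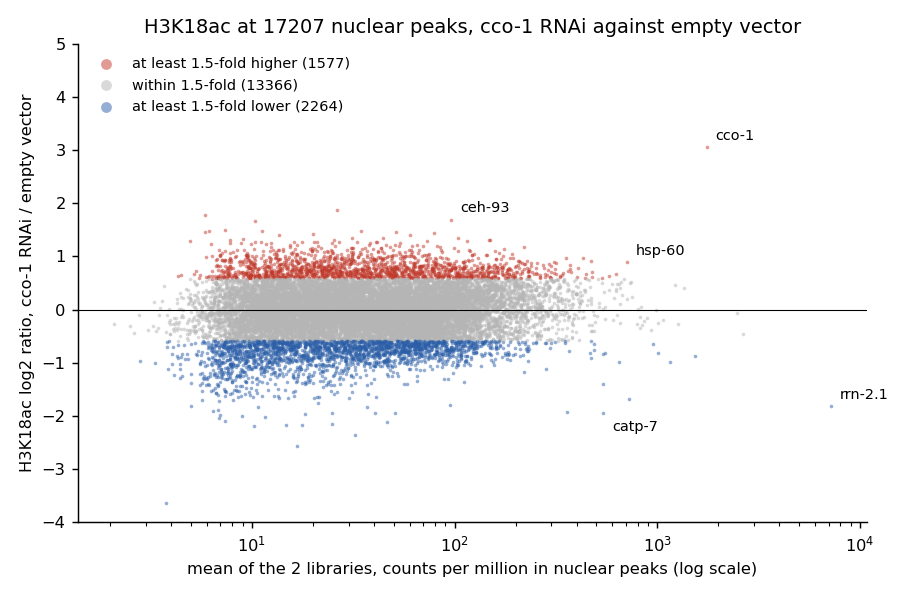
H3K18ac log2 ratio (cco-1 RNAi over empty vector) of each of the 17207 peaks against its mean strength in CPM on a log scale, 1 point per peak. Red points are the 1577 peaks at least 1.5-fold higher and blue points the 2264 at least 1.5-fold lower. The peak over cco-1 stands alone at 3.06 and that over rrn-2.1, the strongest of all, at -1.82.

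Families of clustered, quickly evolving genes were among the classes with the lowest H3K18ac ratios. F-box proteins bring substrates to ubiquitin ligases. The 48 measured genes of the F-box families fbxb and fbxc summed to 1363.7 CPM with cco-1 RNAi and 2222.3 CPM with ev. Of them 38 were lower and 0 higher (79.2% lower, against 13.1% of all genes), with a median log2 ratio of -0.86 against -0.04 for all genes, and 45 of 48 lay below 0. The peak 212 bp upstream of fbxb-62 had 168 counts with cco-1 RNAi and 466 with ev, a log2 ratio of -1.58. The peak over the start of fbxb-64 had 338 and 676 counts in the same order, -1.11. In the family fbxa 16 of 68 genes were lower (23.5%, against 13.1% of all genes) and 5 higher, with a median of -0.06.

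Within fbxb and fbxc most members were lower at each place of the peak relative to the gene. Peaks over the start or the whole gene were lower at 13 of 16 genes, where this place gave 8.0% lower over all genes. Peaks inside the gene or over its end were lower at 4 of 5 and peaks outside the gene at 21 of 27. By chromosome 25 of 27 were lower on II, 4 of 5 on I, 4 of 5 on IV and 4 of 6 on V, but 1 of 4 on III and 0 of 1 on X. The peaks were narrow, with a median width of 406 bp against 584 bp for all genes. These are families of similar copies, and how the authors treated reads that match several copies is not given in the sources used here. Chromatin came from whole worms, so fewer cells that carry the mark and less of the mark per cell cannot be told apart here or in any class below.

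MATH and BTB domain genes, which include adaptors of another ubiquitin ligase, had 14 of 27 lower (51.9%) and 0 higher, with a median of -0.59. Over all genes 13.1% were lower and 8.04% higher. In the outer sixths of the chromosomes 12 of 19 were lower, with a median of -0.69, and in the inner sixths 2 of 8, with a median of 0.05. Over all genes these parts gave 15.5% and 11.8% lower. By place 2 of 7 values from peaks over the start or the whole gene were lower and 7 of 11 from peaks outside the gene, where all genes gave 8.0% and 15.5%. The peak assigned to bath-12, 2385 bp upstream, had 325 counts with cco-1 RNAi and 595 with ev (log2 ratio -0.98). C-type lectin genes, many of which respond to pathogens, had 35 of 95 lower (36.8%) and 5 higher (5.26%), with a median of -0.42. The peak upstream of clec-113 had 276 counts with cco-1 RNAi and 674 with ev, -1.40. The strongest member to go the other way was clec-10, with 865 and 391 counts in the same order, 1.04.

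Chemoreceptors, the odorant receptors of the worm's sensory neurons, were lower across all 4 superfamilies. Together the 302 measured genes summed to 16256 CPM with cco-1 RNAi and 20771.5 CPM with ev. Of them 102 (33.8%) were lower and 7 (2.32%) higher, against 13.1% and 8.04% of all genes, with a median of -0.40. The medians were -0.37 in Str (50 of 125 lower), -0.36 in Srg (19 of 78), -0.41 in Sra (7 of 26) and -0.45 in the solo families (26 of 73). At srg-20 the peak inside the gene had 207 counts with cco-1 RNAi and 472 with ev, -1.30. The peak nearest to the start of srg-20 had -0.37. Few of these genes had their strongest peak over the start or the whole gene: 11 of 302 values came from there. Of these 2 were lower (18.2%, against 8.0% of all genes at this place), with a median of -0.06 against 0.04. Of 134 values from inside the gene or over its end 54 were lower (40.3%, against 17.7% of all genes at this place). The strongest peak assigned to a chemoreceptor thus lay for the most part within or beside the gene, not over its start. Weaker peaks over a start were not counted.

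Pseudogenes were lower to a like degree, also outside these families. Of 536 genes annotated as pseudogenes, 175 (32.6%) were lower and 20 (3.73%) higher, with a median of -0.39. Over all genes 13.1% were lower and 8.04% higher. After removal of the 81 that belong to the F-box, MATH, lectin or chemoreceptor classes, 143 of 455 were lower and the median was -0.37. At the pseudogene Y24F12A.4 the peak inside the gene had 181 counts with cco-1 RNAi and 448 with ev, -1.42.

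H3K27ac was lower at these classes too. At the genes with a peak of both marks the medians for H3K18ac and H3K27ac were -0.83 and -0.91 in fbxb and fbxc (42 genes), -0.60 and -0.64 in MATH and BTB (24), -0.39 and -0.49 in lectins (87), -0.38 and -0.43 in chemoreceptors (271), and -0.38 and -0.39 in pseudogenes (489). Both marks share the worms' treatment but not the libraries, and the difference between the marks cannot be tested with 1 library each.

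Cuticle collagen genes were the large class in which H3K18ac was lower and H3K27ac was not lower than its own background. Collagens form the worm's outer cuticle and are made in the hypodermis at each moult. The 101 measured genes summed to 11441.9 CPM with cco-1 RNAi and 14236.2 CPM with ev, with 16 lower, 2 higher and 83 below 0. The share past 1.5-fold lower (15.8%) was near the 13.1% of all genes, and the shift lay in the median, -0.29. At the 94 genes with both marks the median was -0.30 for H3K18ac and -0.11 for H3K27ac, against -0.03 and -0.14 over all genes with both marks. The H3K18ac ratio lay below the H3K27ac ratio at 68 of the 94. At col-66 the strongest peak, over the gene end, had 678 counts with cco-1 RNAi and 1228 with ev (-0.97, with -0.47 for H3K27ac). The peak of col-66 nearest to the start had -0.48. At col-163 the peak inside the gene had 620 and 1051 counts in the same order, -0.87, with -0.66 for H3K27ac. The hypodermis markers were lower too: 3 of the 6 measured of a list of 7, among them elt-1, which specifies this tissue, with 345 counts with cco-1 RNAi and 546 with ev. Besides elt-1 and lin-26 these 6 are dpy-7, col-19, rol-6 and bli-1, which encode cuticle collagens too. As col-19 is also in the collagen class, the list is not separate from collagens. Unlike the collagen class, the 6 had like medians in both marks, -0.51 for H3K18ac and -0.51 for H3K27ac, and elt-1 had -0.77 in both. The part of the hypodermis in the collagen values was not tested.

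Other classes with lower medians were smaller. Of 8 T-box factor genes, regulators of embryonic fates, 3 were lower and the median was -0.47, and at the 6 with both marks the medians were -0.40 for H3K18ac and -0.24 for H3K27ac. The homeobox genes named ceh had 8 of 30 lower (26.7%) and 2 higher, with a median of -0.32, against 13.1% lower over all genes. Among 47 neuropeptide and insulin-like genes 7 were lower (14.9%, near that background) and 1 higher, and the median was -0.22. Histone genes had 7 of 15 lower and a median of -0.43. Histone copies are near identical, so single members are uncertain.

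Genes for mitochondrial quality control, metabolism and translation lay on the other side. Mitochondrial chaperone, protease and import genes had 6 of 9 higher and 0 lower, against 8.04% higher over all genes, and summed to 1559.3 CPM with cco-1 RNAi and 1022.1 CPM with ev. The outer-membrane import receptor gene tomm-20 had 914 counts with cco-1 RNAi and 475 with ev over its start (0.83), and the protease gene ymel-1 872 and 473 (0.77). Glycolysis genes had 6 of 18 higher and 1 lower, with a median of 0.43, and enolase, enol-1, had 4272 counts with cco-1 RNAi and 2216 with ev (0.84). In both classes H3K27ac was higher as well, with medians of 1.01 (7 genes) and 0.43 (18 genes).

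Cytosolic ribosomal protein genes moved little but together. Of 54 genes 50 lay above 0, with a median of 0.29, while 2 were past 1.5-fold. The 54 genes summed to 9840.8 CPM with cco-1 RNAi and 8154.4 CPM with ev. At the 43 with both marks the medians were 0.29 for H3K18ac and 0.06 for H3K27ac, against -0.03 and -0.14 over all such genes. The H3K18ac ratio was the larger at 32 of the 43. The median difference between the marks was 0.19, against 0.10 over all genes with both marks. At rps-18, a protein of the small subunit, the H3K18ac peak had 3695 counts with cco-1 RNAi and 2315 with ev (0.56), while the H3K27ac ratio there was 0.05. At rps-8 the H3K18ac counts were 1108 and 696 in the same order (0.56), and the H3K27ac ratio was -0.17.

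Among detoxification genes the glutathione S-transferases had 5 of 19 higher and 1 lower, against 8.04% higher and 13.1% lower over all genes. Their median was 0.32. At the 14 with both marks the medians were 0.31 for H3K18ac and 0.01 for H3K27ac, against -0.03 and -0.14 over all such genes. The median difference between the marks was 0.19, against 0.10 over all genes with both marks. The cytochromes P450, which oxidise lipids and foreign compounds, had 6 of 15 higher and 1 lower, with a median of 0.21. At the 13 with both marks the medians were -0.02 for H3K18ac and -0.08 for H3K27ac. The peak over the start of cyp-33C8 had 652 counts with cco-1 RNAi and 379 with ev (0.67). Genes of fatty acid activation, oxidation and desaturation had 6 of 28 higher and 0 lower, with a median of 0.20. The thiolase gene acaa-2 had 930 counts with cco-1 RNAi and 351 with ev at a peak 275 bp upstream, a log2 ratio of 1.30 against 0.37 for H3K27ac. Subunit genes of the vacuolar ATPase, the proton pump of lysosomes, had 14 of 16 above 0 and a median of 0.32. Of them 2 were higher (12.5%, against 8.04% of all genes).

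Nuclear hormone receptors, ligand-regulated transcription factors that are unusually numerous in this worm, split by chromosome position. In the outer sixths of the chromosomes 15 of 52 were higher and 4 lower, with a median of 0.39. In the inner sixths 3 of 58 were higher and 9 lower, with a median of -0.04. Over all genes the outer sixths gave 8.89% higher and 15.5% lower, and the inner sixths 7.57% and 11.8%. The highest ratio was at the start of nhr-132, with 1911 counts with cco-1 RNAi and 718 with ev (1.30, and 1.52 for H3K27ac). Among the 43 receptors of at least median peak strength 7 were higher and 7 lower, so the surplus of higher over lower members lay among the weak peaks.

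Of 7 neuron markers 4 were higher in H3K18ac, and of the 5 with both marks 1 was higher in H3K27ac. These 7 genes summed to 370.2 CPM with cco-1 RNAi and 247.2 CPM with ev. All 7 lay above 0, with 4 higher (57.1%, against 8.04% of all genes). The synaptic vesicle gene snb-1 had 919 counts with cco-1 RNAi and 472 with ev (0.85), and the pan-neuronal gene unc-119 had 642 and 393 (0.60). The membrane fusion gene ric-4 had 375 and 204 counts in the same order (0.77), and unc-31, needed for release of dense core vesicles, 393 and 218 (0.74). The remaining ratios were 0.41 at unc-104, 0.05 at rab-3 and 0.01 at snt-1. At the 5 markers with both marks the medians were 0.74 for H3K18ac and 0.06 for H3K27ac. Over all genes with both marks they were -0.03 and -0.14. H3K27ac was past 1.5-fold at snb-1 (0.62), and had 0.34 at unc-31, 0.06 at ric-4 and at unc-104, and -0.01 at unc-119. These 7 genes are the whole list. The marker lists of the germline (8 of 12 genes measured), sperm (5 of 8), body wall muscle (4 of 6) and pharynx (2 of 6) had medians of -0.23, -0.40, -0.43 and -0.32, with 1 lower and 0 higher in each. Over all genes 13.1% were lower, and the germline share (12.5%) was near that. The intestine list (4 of 9) had 0.37, with 1 higher. List members not measured had no assigned H3K18ac peak. The germline list parted between the marks: at the 7 genes with both, the medians were -0.21 for H3K18ac and -0.75 for H3K27ac, with 0 and 4 lower.

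**Figure D2:**
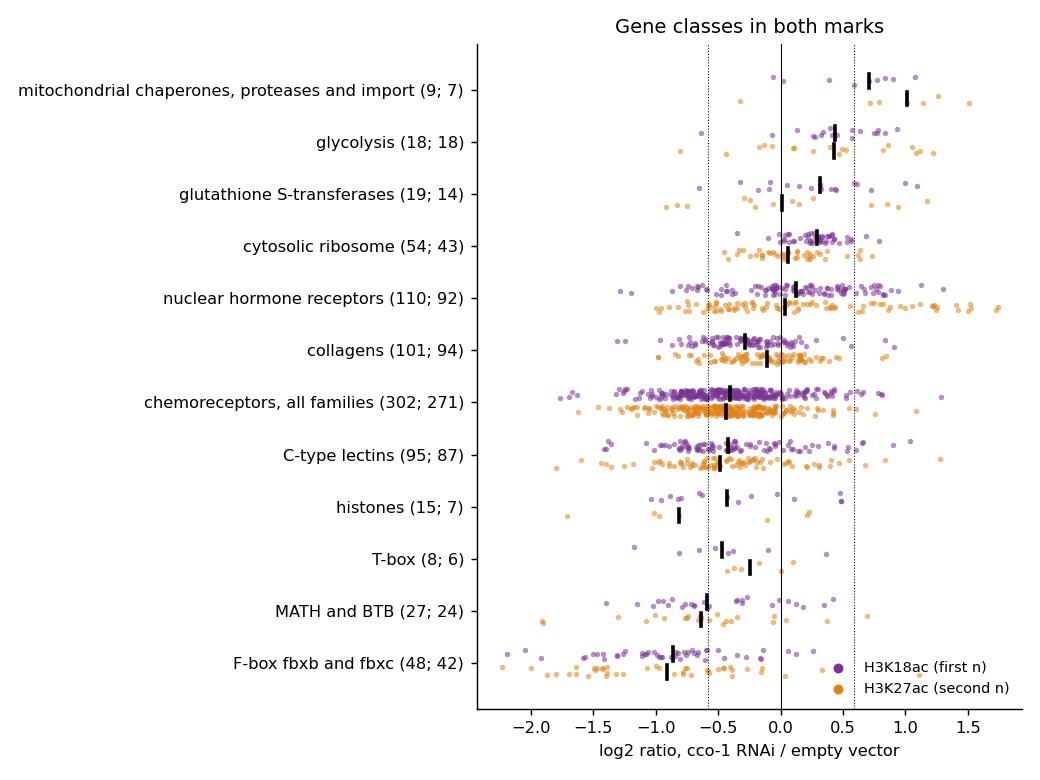
H3K18ac (purple, upper row of each class) and H3K27ac (orange, lower row) log2 ratios, cco-1 RNAi over empty vector, with 1 point per gene, black bars at the class median and dotted lines at 1.5-fold. The numbers in brackets count genes measured in each mark. The F-box families fbxb and fbxc are lowest in both marks (-0.86 for all 48 H3K18ac genes). The median of H3K18ac minus H3K27ac was -0.23 in collagens and 0.19 in the cytosolic ribosome, against 0.10 over all genes with both marks.

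Genes for non-coding RNA, with the strongest assigned peak for each, lay near the background. The medians were -0.05 for 648 piRNA loci (60 higher, 89 lower), -0.05 for 125 tRNA genes (7 and 9), -0.01 for 76 microRNA genes (8 and 6) and 0.00 for 2528 other non-coding RNA genes (212 and 273). A peak is often wide enough to lie over a neighbouring protein gene as well, so these values need not belong to the RNA gene. The peak upstream of mir-266 had 1171 counts with cco-1 RNAi and 1961 with ev (-0.85), and all 4 peaks assigned to mir-266 were lower.

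Where a peak lay relative to its gene went with the direction of change. Peaks over the gene start were balanced, with 277 higher and 261 lower of 3308 (8.37% and 7.89%) and a median of 0.06. Peaks covering a whole gene were balanced too, with 140 and 145 of 1824. Losses prevailed everywhere else: inside the gene 376 were higher and 664 lower of 4040 (9.31% and 16.4%), downstream 162 and 329 of 1968, over the gene end 37 and 75 of 525, and upstream 585 and 790 of 5542. Among peaks of at least the median strength (33.8 CPM), the medians were 0.13 over the start and -0.13 inside the gene, where H3K27ac had 0.05 and -0.09 at the peaks with both marks.

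Peak width separated the directions more sharply than place. Of the 4314 narrowest peaks (208 to 391 bp) 348 were higher and 974 lower (22.6%), with a median of -0.17. Among the 566 peaks of at least 2000 bp, 54 were higher and 14 lower (2.47%), with a median of 0.20. Narrow peaks were also weak, with a median strength of 12.9 CPM against 105.5 CPM for the widest, but the order held among peaks of at least median strength: 113 of 327 of the narrowest were lower and 13 of 552 of the widest.

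The highest ratios among peaks of at least 2000 bp, after cco-1, belonged to genes of varied roles. At atm-1, the DNA damage kinase, a peak of 2274 bp had 1022 counts with cco-1 RNAi and 413 with ev (log2 ratio 1.2, 0.94 for H3K27ac). At the glycogen synthase gene gsy-1 a peak of 2161 bp had 1035 and 518 counts in the same order (0.89, 0.57 for H3K27ac). At hsp-60, the mitochondrial chaperonin, a peak of 2360 bp had 8271 and 4109 counts (0.90, 0.72). The lowest ratios among peaks of this width were at rrn-2.1 and downstream of Y49G5A.1, which had 6961 counts with cco-1 RNAi and 12745 with ev (-0.98, and -0.19 for H3K27ac).

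**Figure D3:**
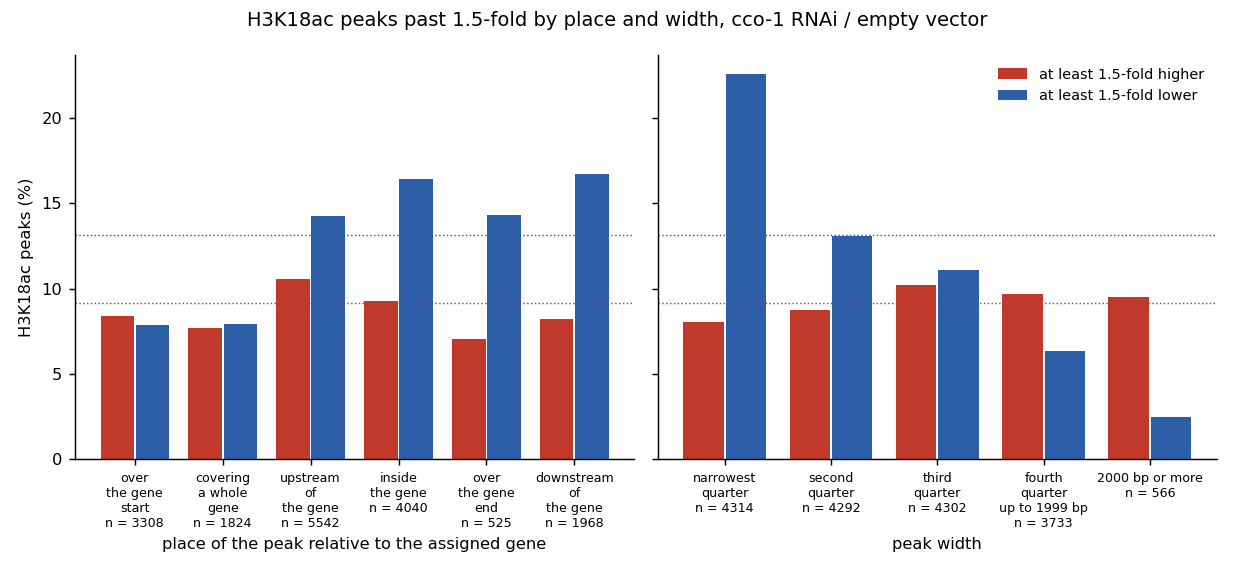
Share of H3K18ac peaks at least 1.5-fold higher (red) and lower (blue) with cco-1 RNAi relative to empty vector, by place relative to the assigned gene (left) and by peak width (right), with the number of peaks under each pair of bars. Dotted lines give the shares over all peaks, 9.16% and 13.2%. The lower share is 22.6% in the narrowest peaks and 2.47% in peaks of 2000 bp or more.

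By chromosome the medians ran from -0.07 on II and -0.06 on I to 0.03 on III and 0.05 on the covered part of X. X was the place where the marks differed most at this scale: at X peaks with both marks the medians were 0.06 for H3K18ac and -0.22 for H3K27ac, against -0.01 and -0.15 over all such peaks. Among X peaks of at least median strength they were 0.07 and -0.09. In bins of 1 Mb the lowest H3K18ac medians were at 17 to 18 Mb of V (-0.54, 80 of 178 peaks lower) and 3 to 4 Mb of II (-0.51, 45.4% of 229). The highest was at 13 to 14 Mb of III (0.16, 31 higher and 13 lower of 198). Of the 128 genes with a peak in the lowest bin, 38 were of the F-box, MATH, lectin or chemoreceptor classes, and of the 120 in the highest, 0. Other bins did not follow this order. At 2 to 3 Mb of V 34 of 130 genes were of these classes, with a median of -0.04. At 11 to 12 Mb of I, the bin with the third lowest median (-0.36), 9 of 155 were.

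Neighbouring peaks moved together. For adjacent peaks up to 500 bp apart Pearson's r between their log2 ratios was 0.65 (2300 pairs). It was 0.56 for gaps over 1000 and up to 2000 bp (2935 pairs), 0.28 over 5000 and up to 10000 bp (2918) and 0.16 over 10000 and up to 50000 bp (1958). These are descriptions across peaks of the same libraries, and close peaks can be parts of a single region. Runs of at least 5 consecutive lower peaks numbered 53 and held 373 of the 2264 lower peaks (16.5%). Runs of higher peaks numbered 19 and held 115 of the 1577 higher peaks (7.29%).

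The longest run, of 22 lower peaks, spanned 144.8 kb of an F-box cluster on chromosome II, 905309 to 1050151. Its peaks held 4372 counts with cco-1 RNAi and 7656 with ev, with log2 ratios between -2.05 and -0.61 and a median of -1.05. Of the 21 genes assigned there 18 belong to the F-box, MATH, lectin or chemoreceptor classes, among them 13 of fbxb and fbxc. The peak over the start of fbxc-36 had 145 counts with cco-1 RNAi and 333 with ev, and that over the start of fbxc-39 had 113 and 280. The 25 H3K27ac peaks of the same stretch had a median of -1.44 with 22 lower. Outside this run the fbxb and fbxc genes were lower at 25 of 35, so the class did not rest on it. A second run, of 18 peaks on chromosome V (19259376 to 19315788), held fbxb-62 and fbxb-64 with 4945 counts with cco-1 RNAi and 9537 with ev. Others lay outside these families, such as 14 peaks at M151.7 and its neighbours on II (3596937 to 3642042; 2821 and 4757 counts) and 11 peaks on X around the homeobox genes ceh-41 and ceh-21 (1800943 to 1851726; 3053 and 4809 counts).

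Runs of higher peaks were shorter and lay at single genes or a few neighbours. The longest were 2 runs of 9 peaks on chromosome III. That at Y48A6B.10 and spat-2 (11026177 to 11051338) had 5684 counts with cco-1 RNAi and 3253 with ev. A run of 6 peaks on I (9164300 to 9174340) joined the elongation factor gene eef-2 and the pyruvate kinase gene pyk-1, with 5521 and 2788 counts in the same order. A run of 7 peaks on II (15193522 to 15212720) at spsb-1 and Y46E12BR.2 held 7809 and 3709 counts, with a median of 0.92.

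Among the 8 longest such runs, those with the lowest H3K27ac medians were at tra-1 and around snt-5. At tra-1, which encodes the zinc finger regulator that ends the sex determination pathway, 6 consecutive peaks inside and upstream of the gene (III, 11187076 to 11198435) held 2701 counts with cco-1 RNAi and 1171 with ev, with ratios between 0.71 and 1.48. The 7 H3K27ac peaks of the stretch had a median of 0.26, and 2 were higher. The peak 2393 bp upstream of tra-1 had 455 counts with cco-1 RNAi and 151 with ev for H3K18ac, and 190 and 165 for H3K27ac. Around snt-5, a synaptotagmin gene, 7 peaks (V, 1398022 to 1414382), of which 3 were assigned to snt-5 and the others to Y75B7AR.1 and R12A1.5, held 2646 and 1452 counts with ratios from 0.59 to 0.82. None of the 6 H3K27ac peaks there was past 1.5-fold, and their median was 0.29.

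**Figure D4:**
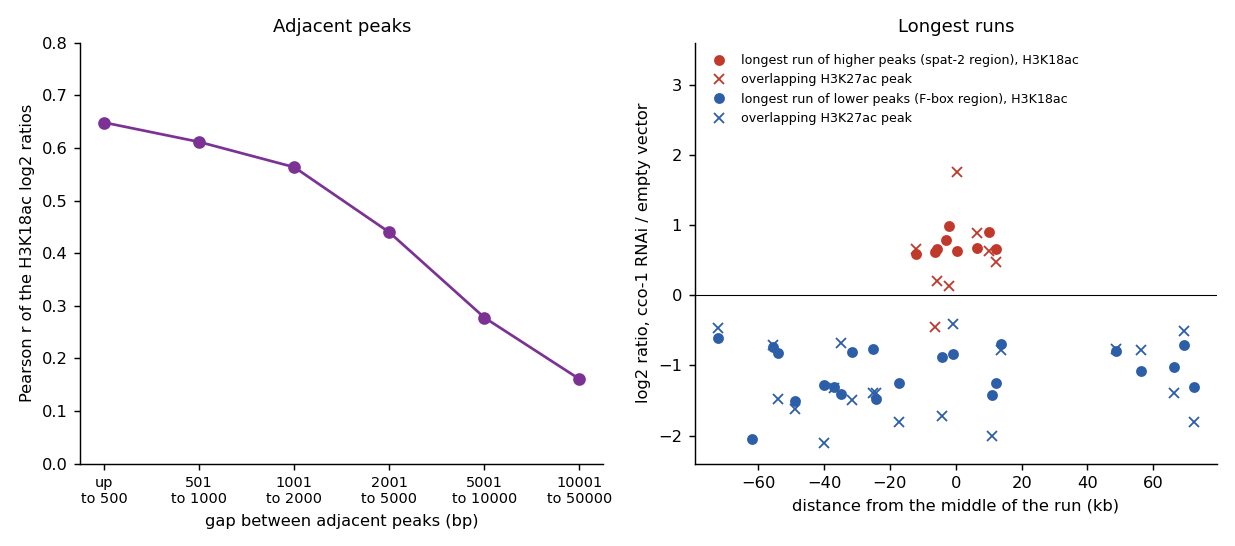
Left, Pearson r between the H3K18ac log2 ratios (cco-1 RNAi over empty vector) of adjacent peaks by the gap between them, from 0.65 up to 500 bp to 0.16 at over 10000 and up to 50000 bp. Right, log2 ratios of the peaks of the longest run of higher peaks (red) and of lower peaks (blue) against the distance from the run's middle in kb, as points for H3K18ac and crosses for the overlapping H3K27ac peaks.

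Of 3498 genes with at least 2 assigned peaks, 698 had a higher peak and 774 a lower peak. Every peak was higher at 91 of the 698 and lower at 158 of the 774, and 29 genes had peaks in both directions. At kal-1, the worm homologue of the gene mutated in Kallmann syndrome, all 5 peaks inside the gene were lower, with ratios from -1.11 to -0.85. The strongest had 689 counts with cco-1 RNAi and 1256 with ev. At crh-1, the worm CREB transcription factor and a partner of CBP, all 3 peaks were higher. They had 1743, 685 and 559 counts with cco-1 RNAi, against 794, 314 and 313 with ev. The overlapping H3K27ac ratios at crh-1 were 1.17, 0.54 and -0.07.

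Peaks without any overlapping H3K27ac peak lost H3K18ac more often than the rest. They numbered 2613 (15.2%), with 222 higher (8.50%) and 637 lower (24.4%), while of the 14594 overlapping peaks 1355 were higher (9.28%) and 1627 lower (11.1%). They were weak, with a median of 11.1 CPM against 42.5 CPM, and 88 reached the median strength of all peaks. Among the 1721 weakest peaks the shares were closer: 25.6% of those without an overlap and 21.7% of those with one were lower. In the 2 weakest deciles together they were 23.8% and 15.8%, and at or above the median strength 27.3% and 10.6%. Of the 519 peaks without an overlap that lay inside a gene 172 were lower (33.1%), and of the 259 over a gene start 28 (10.8%).

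Among the 88 strong ones 4 were higher and 24 lower. The highest ratio among them was 1137 bp upstream of dlk-1, the kinase that drives axon regeneration, with 595 counts with cco-1 RNAi and 271 with ev (1.02). Next came a peak 520 bp upstream of rgs-4, a regulator of G protein signalling, with 512 and 240 counts (0.98), and one upstream of crtc-1, the CREB coactivator that acts in lifespan control, with 504 and 287 (0.70). At crtc-1 a second upstream peak, with 569 counts with cco-1 RNAi and 208 with ev (1.34), had an H3K27ac partner at 0.38. Lower ones included those upstream of C16C8.10 (286 and 700 counts, -1.40), inside C49A1.5 (192 and 466, -1.39) and downstream of F14F11.2 (331 and 781, -1.35).

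By assigned gene, 1833 genes had an H3K18ac peak and no assigned H3K27ac peak, with 128 higher (6.98%) and 361 lower (19.7%). Of these, 648 nonetheless overlapped an H3K27ac peak that the authors assigned to another gene, and among the 1185 that did not, 82 were higher and 299 lower. The share without an assigned H3K27ac peak was 15.4% over all genes. It was highest among classes of at least 10 genes in histones (8 of 15), piRNA loci (32.7% of 648), transthyretin-related genes (4 of 14) and glutathione S-transferases (5 of 19), and 0 of 18 in glycolysis. For histones this came from assignment alone, since all 8 overlapped an H3K27ac peak. At 7 of these 8 the H3K27ac ratio was the lower, as at his-32 with 699 H3K18ac counts with cco-1 RNAi and 1328 with ev (-1.04, against -1.57 for H3K27ac), and at his-35 both were 0.49. The lysozyme gene ilys-1 had no H3K27ac overlap and had 245 counts with cco-1 RNAi and 454 with ev (-1.0).

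Where both marks had a peak, rises of H3K18ac were shared less than falls. Of 1627 lower H3K18ac peaks 895 (55%) were also lower in H3K27ac and 209 (12.8%) had H3K27ac within 1.2-fold. Of 1355 higher peaks 425 (31.4%) were also higher in H3K27ac and 424 (31.3%) had it within 1.2-fold. H3K27ac was lower at 18.7% and higher at 8.40% of all 14594 overlapping peaks, so its own balance leans the same way. H3K18ac was past 1.5-fold in either direction at 20.4% of them. Pearson's r between the marks was 0.59 across these peaks, which share the treatment but no library. By gene, 244 were higher and 161 lower in H3K18ac with H3K27ac within 1.2-fold. With both medians set to 0 these counts were 198 and 311, so which direction prevails depends on the scaling.

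Rises of H3K18ac with level H3K27ac, at the overlapping peak or by the gene's strongest peak, were spread over genes of several functions. The gene pod-2 encodes the acetyl-CoA carboxylase that makes malonyl-CoA for fatty acid synthesis. At its start H3K18ac had 474 counts with cco-1 RNAi and 189 with ev (1.22). The strongest H3K27ac peak of pod-2 had -0.09, but the one that overlaps the start peak was higher too (0.62), so H3K27ac was level by gene only. At mrp-8, an ABC transporter gene, a peak 1552 bp upstream had 521 and 201 counts in the same order for H3K18ac (1.26) and 314 and 303 for H3K27ac. Upstream of plst-1, a plastin gene whose product bundles actin, the H3K18ac counts were 787 and 274 (1.41) and the H3K27ac counts 796 and 673. Inside acaa-2 a second peak had 656 and 304 counts (1.00), and H3K27ac 0.06. Over the start of Y66D12A.21 the counts were 563 and 259 (1.01), and H3K27ac 0.01.

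Several of the deep H3K18ac losses at strong peaks lay close together. At 2 of these places H3K27ac was level. On chromosome IV, between Y59H11AM.1 and catp-7, 5 neighbouring peaks (8572753 to 8581939) held 3855 counts with cco-1 RNAi and 13627 with ev, with ratios between -2.15 and -1.79. The 4 H3K27ac peaks there held 2960 counts with cco-1 RNAi and 2978 with ev, with ratios between -0.08 and 0.08. The nearest peaks inside catp-7, a P-type ATPase gene, were on the other side of 0, at 0.47 and 0.61, so the loss did not extend into the gene. On X upstream of B0403.6 (7077416 to 7079299) 2 peaks held 3244 and 9661 H3K18ac counts in the same order, and the H3K27ac peak 2346 and 2240.

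At 2 further places of deep H3K18ac loss only 1 H3K18ac peak each overlapped an H3K27ac peak, and that H3K27ac peak was lower as well. On X between acr-10, an acetylcholine receptor subunit gene, and Y80E2A.1, 7 peaks in 19.96 kb (4030271 to 4050229) held 1059 counts with cco-1 RNAi and 3072 with ev, with ratios from -2.36 to -0.66. The only overlapping H3K27ac peak lay at the shallowest of them (-0.66) and had 219 counts with cco-1 RNAi and 354 with ev (-0.70). The other 6, which include all the deep losses there, overlapped no H3K27ac peak. The peak 2314 bp upstream of acr-10 had 428 and 181 counts in the same order (1.13), so peaks assigned to this gene went both ways. On V, 19584 bp or more upstream of H05O09.3, 3 peaks (6172962 to 6176119) held 494 and 1566 H3K18ac counts. The only H3K27ac peak, at the deepest of the 3 (-1.95), had 105 and 203 (-0.96). Smaller losses beside level H3K27ac were found upstream of the ligand-gated channel gene lgc-26, with 3872 counts with cco-1 RNAi and 7101 with ev (-0.98, H3K27ac -0.06), and inside stim-1, the calcium sensor of the endoplasmic reticulum, with 365 and 735 (-1.12, H3K27ac 0.08). The peak of stim-1 nearest to its start had 0.48.

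**Figure D5:**
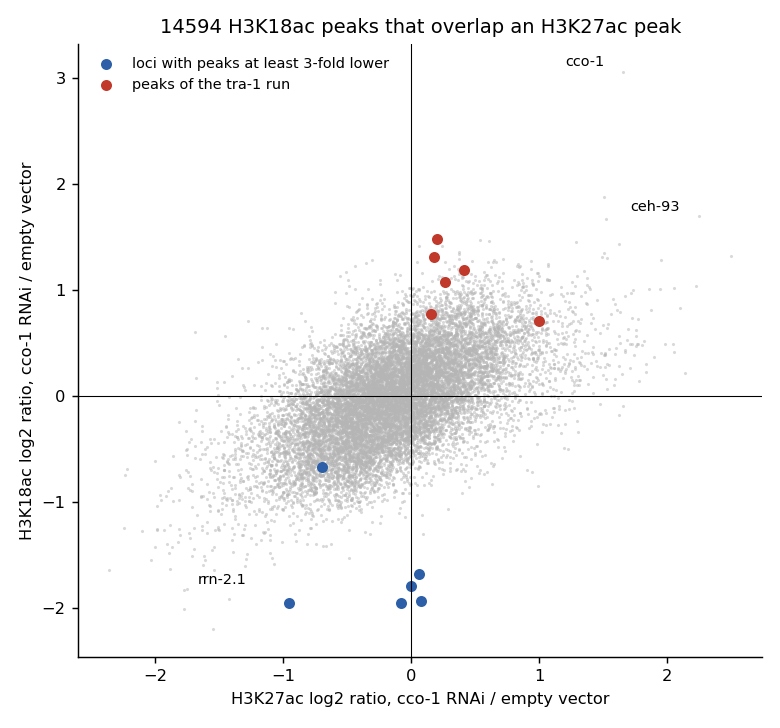
H3K18ac against H3K27ac log2 ratios, cco-1 RNAi over empty vector, at the 14594 H3K18ac peaks that overlap an H3K27ac peak, 1 grey point per peak. Blue points are lower peaks of the loci described in the text, which sit between -0.66 and -1.95 for H3K18ac, 4 of them at an H3K27ac ratio between -0.08 and 0.08. Red points are the peaks of the tra-1 run.

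The ribosomal DNA peak over rrn-2.1 was lower in both marks. It had 28302 counts with cco-1 RNAi and 92551 with ev for H3K18ac (-1.82), and -1.75 for H3K27ac. It is a repeated locus, and its share of the library was not corrected. The 20 peaks with the highest CPM per kb, rrn-2.1 among them, took 2.11% of the counts with cco-1 RNAi and 3.15% with ev. Of them 18 lay below 0 for H3K18ac with a median of -0.26, while H3K27ac had 0.03 and lay within 1.2-fold at 15. At the densest, upstream of F52G2.3, H3K18ac had 9753 counts with cco-1 RNAi and 16477 with ev (-0.87), and H3K27ac -0.26.

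Opposite moves past 1.5-fold in the marks, by the strongest peak of the gene in each, were found at 11 genes. They were not always at the same place. At 10 of them the H3K18ac peak was below the median strength, and at the other, F22E5.6, the overlapping H3K27ac peak was higher as well. The same held at W06F12.3 and ZK484.4, where the overlapping H3K27ac peaks had 0.69 and 0.76. The H3K18ac peak of F40F9.15 overlapped no H3K27ac peak. The ubiquitin-like gene ubl-5, a factor of the mitochondrial stress response, had 72 H3K18ac counts with cco-1 RNAi and 108 with ev over its start (-0.69, fold interval 0.45 to 0.84) and 109 and 58 H3K27ac counts (0.91). At marb-1 the counts were 58 and 85 for H3K18ac and 136 and 87 for H3K27ac. At nhr-122 the H3K18ac peak (146 counts with cco-1 RNAi and 237 with ev) overlapped an H3K27ac peak that was lower as well (151 and 292), and the strongest H3K27ac peak of the gene, elsewhere, was higher.

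At hsp-6 and atfs-1 the higher peaks lay away from, not over, the start. At hsp-6, the mitochondrial Hsp70, the peak over the start had 2477 counts with cco-1 RNAi and 2391 with ev (-0.06), and the peak inside the gene 705 and 351 (0.90). A further peak within hsp-6, assigned to adss-1, had 172 and 100 counts in the same order (0.67). Reads from an hsp-6 reporter and from the gene cannot be told apart. At atfs-1, the transcription factor of the response, the start peak had 879 and 766 counts in the same order (0.09) and the peak just inside the gene 1517 and 848 (0.73). The strongest, past the gene end and 5153 bp from the start, had 2290 and 1082 (0.97). A weak upstream peak had 90 and 132 (-0.66). At dve-1 the stronger peak inside the gene had 911 and 542 counts (0.64), with 0.49 for H3K27ac. At cbp-1 the peaks had 1002 and 966 counts (-0.06) and 613 and 746 (-0.39), and the 2 further peaks within cbp-1, which the authors assigned to R10E11.13, had 207 and 295 (-0.62) and 154 and 141 (0.02). The peak over cco-1 had 27918 counts with cco-1 RNAi and 3111 with ev, and DNA of the feeding plasmid and of the gene cannot be told apart there. In the respiratory chain, where 3 of 22 genes were higher and 0 lower, cco-1 is 1 of the 3, beside atp-2 (2179 and 1287 counts, 0.65) and cco-2 (3024 and 1842, 0.61).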

How the data were processed

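The deposited tables, 1 for each mark, give per peak a position, an assigned gene and a whole-number count for each RNAi condition, per the file headers. Named in the submitters' processing notes, without roles, are WBcel235, ce11, MACS2 2.1.2, SAMtools 1.4.1, Bowtie2 2.3.5 and FastQC. How peaks were called, reads filtered or counted, and the inputs used, is not given in the sources used here. Within a mark the RNAi and ev columns cover the same peaks. Repeat lines of a peak (119 for H3K18ac) were counted once, and 5 mitochondrial peaks, at 0, were left out.

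CPM and log2 ratios without a pseudocount were computed with Python 3.11.15 and pandas 2.3.3, and TMM factors with edgeR 4.0.16. The scripts were tested on simulated data. A gene took its assigned peak with the highest mean CPM. Peaks were shared when they overlapped by at least 1 bp. Biotypes came from RefSeq genes of WBcel235, matched by symbol for 97.8% of genes. The 39 classes were formed by symbol.

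Named genes were the stress response genes; the 8 largest rises and falls of at least median strength in each set compared with H3K27ac, and up to 10 opposite movers; up to 4 members per class; and the extreme peaks of each place. Genes of runs, genes with several peaks, loci of deep loss and the densest peaks were chosen after their values were seen. Members, lists and rules were chosen with earlier results of these data known. No test was made, since each group has 1 library. The closing section gives the alternatives.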

Additional observations from a re-analysis of the deposited data

How the results depend on the processing

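No paired analysis was possible because each group has 1 library, and title numbers differ by antibody, not by replicate. Leaving out a library was not possible with 1 per group. Shares of promoters with sequence motifs were planned and not run, since no genome sequence was used here.

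Over median scaling, TMM scaling, centring by peak strength and a pseudocount of 1 CPM, the H3K18ac peaks at least 1.5-fold higher numbered 1416 to 1766 and those lower 2059 to 2117. A 2-fold threshold gave 194 and 459. Peaks of at least median strength gave 791 higher and 929 lower, and by place 176 and 105 over the start, 165 and 303 inside, 252 and 273 upstream and 79 and 130 downstream. Requiring an overlap of 50% of the peak gave 338 higher without H3K27ac, and dropping genes with any overlap left 82 higher. Genes with H3K27ac under 1.5-fold numbered 535 higher and 552 lower, and median scaling of both marks gave 311 lower.

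With the peak nearest to the gene start in place of the strongest, the log2 ratio changed sign at Y37D8A.5 (-0.025), ZK484.4 (-0.27), acr-10 (1.13), catp-7 (0.47), stim-1 (0.48) and M01E10.t2 (0.19), and the bZIP median became -0.046 (0.45 with the strongest peak). The cause was not tested. Of the other class counts and medians 153 stayed within 1.5 times or within their interval, and 17 did not. Of the values of single named genes 1025 stayed within their interval, 59 moved beyond it and 6 changed sign. Depth limits single weak peaks: at ubl-5, with 72 and 108 counts, the fold interval ran from 0.45 to 0.84.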

Other observations

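With no limit on strength, the largest fall of all H3K18ac peaks was 382 bp upstream of irld-65 on chromosome II (2938334 to 2938563), with 5 counts with cco-1 RNAi and 58 with ev, a log2 ratio of -3.65. The next was 1157 bp upstream of its neighbour irld-67 (2935611 to 2936477), with 43 and 237 counts in the same order (-2.57). Neither overlapped an H3K27ac peak. The symbol irld marks genes with domains like the extracellular part of the insulin and EGF receptors. After cco-1, the largest rises were upstream of Y37D8A.27 on III (12862485 to 12863022), with 369 counts with cco-1 RNAi and 93 with ev (1.88, with 1.5 for H3K27ac), and over K12G11.10 on V, with 82 and 22 (1.79).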
